A study of Homo sapiens with 2 samples.

Results

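Mitochondrial ribosomal protein genes were examined in the peaks of an mTOR ChIP-seq experiment, that is, chromatin immunoprecipitation and sequencing with an antibody against the growth kinase mTOR. The genes were taken by name: protein-coding genes whose symbol is MRPL or MRPS followed by a number, with an A, B or C at most, together with DAP3. The gene reference used here held 78 of them on the chromosomes with peaks, among 19974 protein-coding genes. The peak table assigned 48 of its 21440 peaks to 42 of the 78 (53.8%, 42.2 to 65.2%), whereas 41.7% of all protein-coding genes had an assigned peak. Among the higher-scoring 10720 peaks the order turned, with 18 of 78 (23.1%, 14.3 to 34.0%) against 26.7%. The data were 1 mTOR ChIP library from MDA-MB-231, an established line of human triple-negative breast cancer, grown in DMEM with 10% serum and antibiotics, without a further treatment or genetic change in the labels. The other library, labelled input, came from the same cells in the same medium. Input is usually chromatin without enrichment, how it entered the peak calling is not stated, and no file of it was analysed here. Each kind of library had 1 sample, so no difference below has a replicate check and no test was made. The intervals are exact Clopper-Pearson 95% intervals that cover counting error only, over genes that are not replicates. A peak list holds no expression values, so the cell line could not be checked against marker genes, and the sequencing depth is unknown.

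Mitochondria carry their own ribosome, which makes the few proteins encoded by mitochondrial DNA, all of them parts of the respiratory chain and ATP synthase. Its ribosomal RNAs come from mitochondrial DNA, whereas every one of its proteins is encoded in the nucleus, made in the cytosol and imported. Some of these proteins descend from bacterial ribosomal proteins, and others were added during the evolution of mitochondria. The large subunit joins amino acids and the small subunit reads the messenger RNA. mTOR is known as a cytosolic kinase that raises protein synthesis and mitochondrial activity when nutrients are plentiful, and the series concerns its nuclear complex with PML and with RONIN, the DNA-binding protein encoded by THAP11.

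A promoter peak was a peak that the deposited annotation assigns to the gene and that reaches within 1 kb of the start site. By this measure 28 of the 78 mitochondrial ribosomal protein genes (35.9%, 25.3 to 47.6%) had one, against 3097 of all 19974 protein-coding genes (15.5%). The peaks were placed almost entirely on the start itself. With the window narrowed to 100 bp the number stayed at 28, whereas that of all protein-coding genes was 2186 (10.9%). With the deposited promoter-TSS class it was 27 genes (34.6%), against 12.0% of all protein-coding genes. The gene lost there was MRPL48, whose peak was deposited in exon 1 of a non-coding transcript of MRPL48.

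The sequences around these starts are shown for 4 of the 5 genes with the highest-scoring promoter peaks, and for MRPS11, which shares its peak with MRPL46. Each runs from 250 bases before to 50 bases after a start listed by RefSeq on GRCh38.p14, the assembly of hg38 at a later patch, 5′ to 3′ on the strand of the gene. Capitals mark the letters of 5 motifs described further below, namely the RONIN/ZNF143 element, NRF1, ETS, YY1 and the E-box.
MRPL34 (chr19:17305622-17305921, plus strand): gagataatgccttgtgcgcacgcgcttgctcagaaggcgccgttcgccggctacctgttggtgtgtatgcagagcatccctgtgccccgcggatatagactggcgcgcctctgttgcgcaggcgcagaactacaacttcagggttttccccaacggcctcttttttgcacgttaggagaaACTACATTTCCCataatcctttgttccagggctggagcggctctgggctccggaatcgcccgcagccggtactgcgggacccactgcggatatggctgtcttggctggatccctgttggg
MRPL24 (chr1:156741039-156741338, minus strand): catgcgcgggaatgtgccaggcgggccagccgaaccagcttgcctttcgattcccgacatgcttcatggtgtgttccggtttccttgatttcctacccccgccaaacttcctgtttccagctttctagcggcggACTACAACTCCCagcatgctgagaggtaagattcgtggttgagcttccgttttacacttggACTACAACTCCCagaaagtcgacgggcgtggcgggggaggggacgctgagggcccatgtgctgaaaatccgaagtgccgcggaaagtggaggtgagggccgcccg
MRPS17 (chr7:55951627-55951926, plus strand): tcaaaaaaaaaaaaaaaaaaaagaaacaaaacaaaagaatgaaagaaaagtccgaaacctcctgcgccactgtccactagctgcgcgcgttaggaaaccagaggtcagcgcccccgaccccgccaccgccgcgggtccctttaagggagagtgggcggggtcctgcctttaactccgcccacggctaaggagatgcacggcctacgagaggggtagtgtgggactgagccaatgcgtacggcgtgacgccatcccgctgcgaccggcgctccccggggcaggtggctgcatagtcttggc
MRPS23 (chr17:57849995-57850294, minus strand): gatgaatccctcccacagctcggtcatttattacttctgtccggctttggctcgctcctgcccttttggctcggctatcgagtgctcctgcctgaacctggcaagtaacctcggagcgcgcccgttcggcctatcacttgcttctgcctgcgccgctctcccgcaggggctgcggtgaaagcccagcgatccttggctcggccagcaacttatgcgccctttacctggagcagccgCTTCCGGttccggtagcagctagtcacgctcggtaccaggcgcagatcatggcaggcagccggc
MRPS11 (chr15:88467458-88467757, plus strand): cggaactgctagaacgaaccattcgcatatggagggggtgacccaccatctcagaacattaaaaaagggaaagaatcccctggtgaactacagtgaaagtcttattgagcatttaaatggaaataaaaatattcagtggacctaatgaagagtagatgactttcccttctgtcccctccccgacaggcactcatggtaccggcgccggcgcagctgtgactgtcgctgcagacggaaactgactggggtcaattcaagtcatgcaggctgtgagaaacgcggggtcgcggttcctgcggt

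MRPL34, which encodes a large subunit protein with a bacterial counterpart, had the highest score of the promoter peaks, 137, on a peak of 567 bp (chr19:17305684-17306250) centred 95 bp after the start. The score is the one deposited by the authors. Its scale is unknown here, so it serves to rank peaks and nothing more. A second peak of score 13, which is the lowest value in the whole list, lay on the upstream side with its centre at -829 bp (chr19:17304916-17305171). It was the only promoter peak of these genes that did not cover the assigned start. A further peak of score 54 (chr19:17291943-17292210), assigned to ANKLE1, was centred 497 bp before another listed start of MRPL34. In the 300-base window of MRPL34 printed above, the element in capitals spans positions -70 to -59, counting the start base as 0.

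MRPS17, a small subunit protein with a bacterial counterpart, followed with a score of 125 (chr7:55951573-55951981, centre at -100 bp). MRPS23, a small subunit protein without one, had 118 (chr17:57850013-57850400, centre at -162 bp). These 3 genes alone reached a score of 100 at their promoters. MRPL13, a large subunit protein with a bacterial counterpart, had 91 (chr8:120445068-120445454, centre at -111 bp). MRPL24, likewise of bacterial origin, had 87 on a peak of 551 bp (chr1:156740939-156741489, centre at -126 bp).

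**Figure D1:**
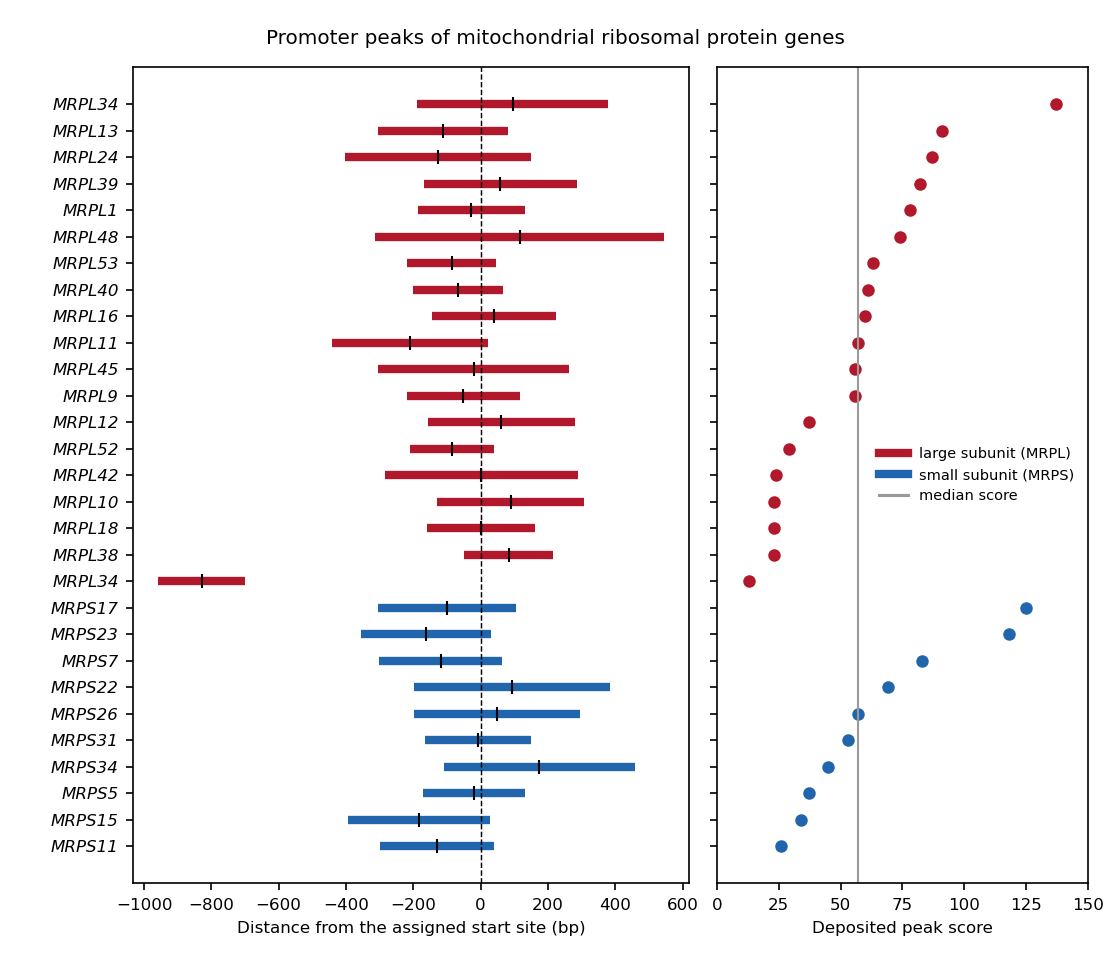
Left, extent of each promoter peak (bar) and its centre (tick) in bp from the assigned start, with upstream on the negative side. Right, deposited score of the same peak, with the median of 57 as a grey line. Rows are the 19 peaks of large subunit genes above the 10 of small subunit genes. All peaks cover the start except the second MRPL34 peak.

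The 28 genes together had 29 promoter peaks, with scores from 13 to 137 and a median of 57, against a median of 54 over the 3335 promoter peaks of all protein-coding genes. The middle of their score distribution was close to that of other promoters. None of the 78 genes had an assigned promoter peak among the 2144 top-scoring peaks of the list, whose lowest score was 200. A peak of score 454 over the end of the MRPL2 span was assigned to KLC4 and is not counted here. A count of 0 of 78 allows a share of up to 3.85% by a limit of 3 counts and 4.62% by the exact interval, and the share over all protein-coding genes was 1.57%, which lies inside that interval. Taking the highest-scoring promoter peak of each gene, 3 of 28 (10.7%, 2.27 to 28.2%) scored 100 or more, against 784 of 3069 (25.5%) in other protein-coding genes. Peaks were 249 bp (MRPL52) to 858 bp (MRPL48) wide, with a median of 388 bp against 446 bp over all promoter peaks. Their upper quartile was 493 bp, against 648 bp.

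**Figure D2:**
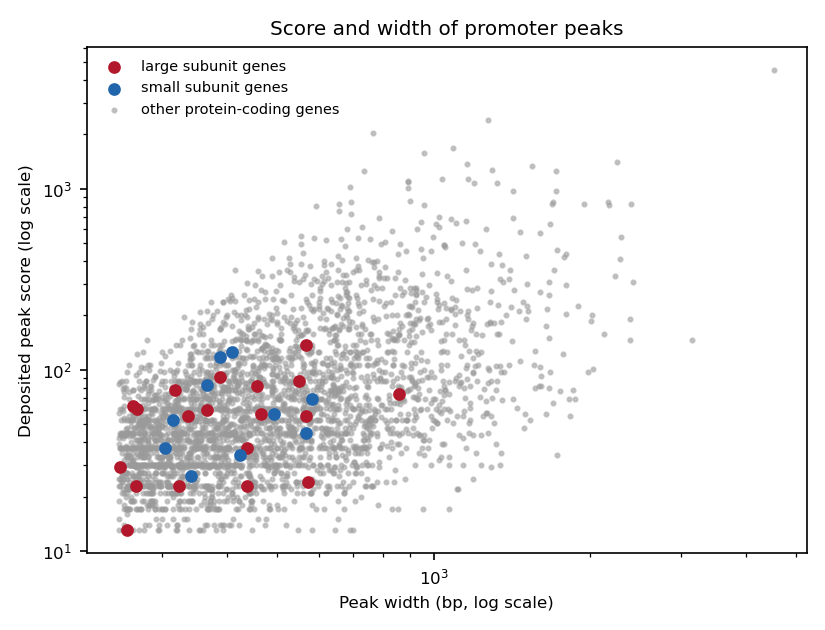
Deposited score against width, both on log axes, for the promoter peaks of large subunit genes, small subunit genes and other protein-coding genes. The mitochondrial ribosomal protein genes lie within 13 to 137 in score and 249 to 858 bp in width, among the points of the other promoters.

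The position of the peaks differed more from other promoters than their score did. Centres lay within 200 bp of the start in 27 of 28 genes (96.4%, 81.7 to 99.9%), counting the highest-scoring promoter peak of each, against 1534 of 3069 other protein-coding genes with such a peak (48.2 to 51.8%). The peak covered the start in 28 of 28 (exact interval 87.7 to 100%), against 57.8% (56.1 to 59.6%). Both measures use the start assigned in the deposited annotation, which can differ from the start listed by RefSeq. The MRPS5 peak of 303 bp was centred 20 bp from its assigned start but 231 bp from a listed start, which it did not cover. The centre of the MRPL11 peak at -210 bp was the one beyond 200 bp. On which side the centre fell was mixed, with 16 of 28 upstream (57.1%, 37.2 to 75.5%), close to the 57.9% of other genes. The centre was at most 2 bp from the start in MRPL18 and MRPL42, 8 bp before it in MRPS31, and 175 bp after it in MRPS34. No promoter peak of these genes had a repeat label at its centre, 0 of 29, which allows a share of up to 10.3% by 3 counts. In other protein-coding genes 3.54% of promoter peaks had one.

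Large and small subunit genes had promoter peaks about equally often. Of the 49 MRPL genes 18 had one (36.7%, 23.4 to 51.7%), and of the 29 small subunit genes, which are the MRPS genes and DAP3, 10 had one (34.5%, 17.9 to 54.3%). The median score was 57 over 19 large subunit peaks and 55 over 10 small subunit peaks. Median widths were 387 and 398.5 bp. The intervals of both shares overlap almost fully, so these counts could not show a difference of the size seen. Structures of the human mitochondrial ribosome place MRPS30 and MRPS18A in the large subunit in spite of their symbols. Counted there, the shares were 18 of 51 (35.3%) and 10 of 27 (37.0%), since neither gene had a promoter peak.

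**Figure D3:**
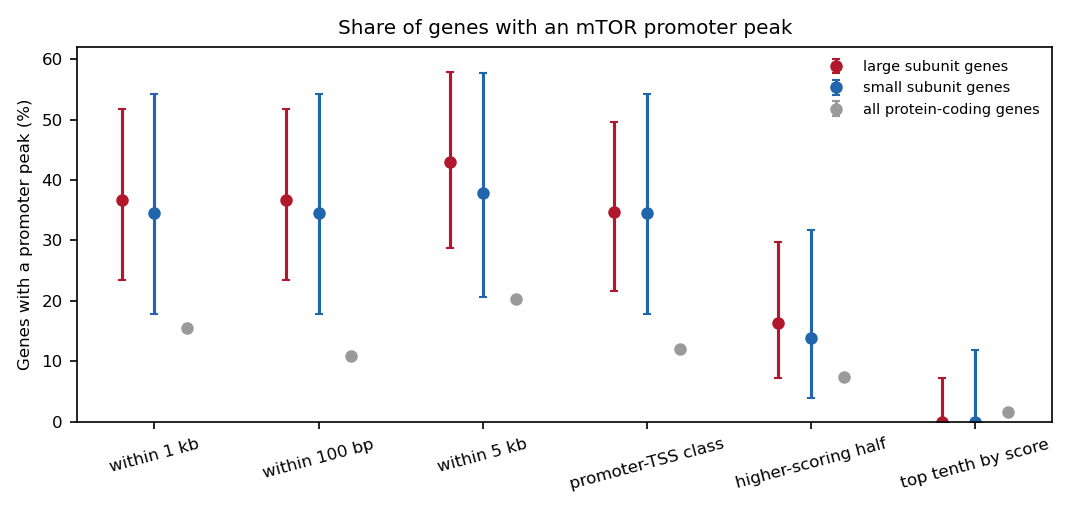
Share of large subunit, small subunit and all protein-coding genes with a promoter peak (points, percent of genes) with exact 95% intervals, by window, deposited class and score limit. Large and small subunit genes lie together at 36.7% and 34.5% within 1 kb, and all protein-coding genes at 15.5%.

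By ancestry of the protein, a grouping made after the values were seen, promoter peaks occurred in each class. Large subunit proteins with a counterpart in the bacterial large subunit had 10 of 30 (33.3%, 17.3 to 52.8%). The remaining large subunit proteins, with MRPS30 and MRPS18A among them, had 8 of 21 (38.1%, 18.1 to 61.6%). The place of MRPS18A in this count follows its subunit and not its ancestry. In the small subunit the counts were 5 of 16 (31.2%) and 5 of 11 (45.5%, 16.7 to 76.6%). The genes of the ribosomal stalk, which recruits translation factors, were among them: MRPL10 scored 23 (chr17:47831233-47831669), MRPL11 57 (chr11:66438827-66439290) and MRPL12, whose product also binds the mitochondrial RNA polymerase, 37 (chr17:81703211-81703647). MRPL1, of the mobile stalk on the other side of the subunit, scored 78 (chr4:77862645-77862961). Further bacterial-type large subunit genes were MRPL16 with 60 (chr11:59810556-59810921), MRPL9 with 56 (chr1:151763381-151763716) and MRPL18 with 23 (chr6:159789707-159790029). These scores run from the low end of promoter peaks to above their middle: 7.38% of all promoter peaks scored below MRPL10 and MRPL18, and 65.7% below MRPL1.

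Among large subunit proteins without bacterial counterparts, MRPL39 had the highest score, 82 (chr21:25607202-25607658), and MRPL48 followed with 74 and the widest peak (chr11:73787562-73788419). MRPL53 scored 63 (chr2:74472635-74472898) and MRPL40, whose gene lies in the region lost in the 22q deletion syndrome, 61 (chr22:19432346-19432613). MRPL45, which anchors the ribosome to the inner membrane near the exit of the nascent chain, scored 56 (chr17:38296864-38297431). MRPL52 with 29 (chr14:22829677-22829925), MRPL42 with 24 (chr12:93467231-93467802) and MRPL38 with 23 (chr17:75904884-75905150) were at the low end.

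In the small subunit the bacterial-type genes were MRPS7, which binds the head of the subunit, with 83 (chr17:75261579-75261944), MRPS5 with 37 (chr2:95121426-95121728), MRPS15 with 34 (chr1:36464356-36464778) and MRPS11, of the platform, with 26 (chr15:88467409-88467748), beside MRPS17. Among the proteins without bacterial counterparts, MRPS22, in which mutations cause a respiratory chain disorder, scored 69 (chr3:139343796-139344379). MRPS26 scored 57 (chr20:3045855-3046347), MRPS31 53 (chr13:40771041-40771355) and MRPS34, mutated in Leigh syndrome, 45 (chr16:1772676-1773242). Chromosome 17 held 6 of the 28 genes, out of 8 mitochondrial ribosomal protein genes on it, and 22.8% of the 1169 protein-coding genes there had a promoter peak. This chromosome was picked after the values were seen.

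Genes of the translation machinery are often arranged head to head, so that 1 short stretch of DNA serves as promoter of both. Of the 70 genes with a start listed by RefSeq, 27 (38.6%, 27.2 to 51.0%) were divergent, with the start of another gene on the opposite strand within 1 kb upstream, against 22.1% (21.5 to 22.8%) of the 15812 protein-coding genes with a listed start. In 21 of the 27 the neighbour was protein-coding, against 1946 of the 3500 divergent protein-coding genes. Among genes with a listed start these were 21 of 70 (19.6 to 42.1%), against 12.3% (11.8 to 12.8%). The other 6 had only a long non-coding RNA gene as neighbour (8.57%, 3.21 to 17.7%), against 9.83%. The higher share of divergent genes was thus seen with protein-coding neighbours only, which was not tested. For this question any peak within 1 kb of a listed start was counted, whichever gene it had been assigned to, because the annotation gives each peak to 1 gene. So counted, 28 of the 70 genes (40.0%) had a peak at the start, against 19.3% of the protein-coding genes.

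Among the 70 mitochondrial ribosomal protein genes with a listed start, the divergent ones had peaks less often. A peak lay at 6 of the 27 divergent starts (22.2%, 8.62 to 42.3%), against 22 of the other 43 (51.2%, 35.5 to 66.7%). Over all protein-coding genes the order was the opposite, with 994 of 3500 divergent (28.4%, 26.9 to 29.9%) and 2050 of 12312 other genes (16.7%, 16.0 to 17.3%). This contrast was noticed after the values were seen and was not tested. It was narrower when opposite-strand starts within 1 kb on either side were counted. The shares were then 9 of 31 (29.0%, 14.2 to 48.0%) and 19 of 39 (48.7%, 32.4 to 65.2%), and these intervals overlap. Over all protein-coding genes they were 27.6% and 16.3%. MRPL43 and MRPL47 also begin within 1 kb of a gene without a listed start, TWNK and NDUFB5, and neither had a peak. With genes of that kind counted as divergent the shares were 6 of 29 (20.7%) and 22 of 41 (53.7%), against 28.5% and 16.3% over all protein-coding genes. The 8 genes without a listed start are in neither count, and their neighbours were not examined. Among them, MRPL13 had a promoter peak of score 91 whose class named a transcript of MTBP. At the end of the MRPL2 span lay a peak of score 454 assigned to KLC4. Counting such genes as divergent could narrow the contrast.

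**Figure D4:**
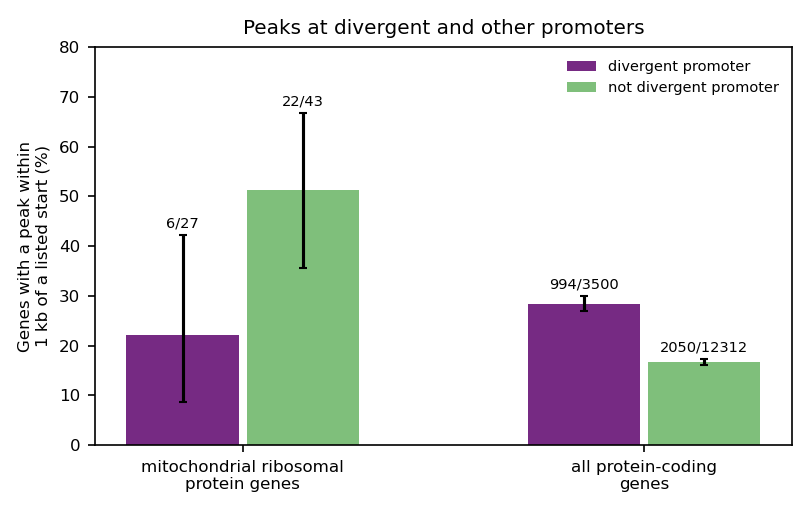
Share of genes with any peak within 1 kb of a listed start (bars, percent, with exact 95% intervals and counts) for divergent and other promoters of mitochondrial ribosomal protein genes and of all protein-coding genes. Divergent promoters are lower among the mitochondrial ribosomal protein genes (22.2% and 51.2%) and higher among all protein-coding genes (28.4% and 16.7%). Genes without a listed start are not counted.

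The 6 divergent starts with a peak made up 5 promoters. MRPS11 and MRPL46, a small and a large subunit gene whose starts lie 320 bp apart, shared 1 peak of score 26, which was assigned to MRPS11 and lay with its centre 130 bp before the start of MRPS11 and 191 bp before that of MRPL46. The MRPS11 window printed above holds none of the motifs in capitals and ends short of the MRPL46 start. The window of MRPL46 itself, not printed here, has YY1 letters at positions 8 to 16 after its start. MRPS7 and GGA3, an adaptor of Golgi transport, start 273 bp apart, and the peak of score 83 was assigned to MRPS7 while its class named a transcript of GGA3. MRPL40 and HIRA, a histone chaperone gene, start 812 bp apart and had the peak of score 61. MRPL18 and TCP1, a chaperonin subunit gene, start 210 bp apart and had the peak of score 23. MRPL27 begins 45 bp from EME1, a nuclease subunit gene, and its start had within 1 kb a peak of score 29 that was assigned to EME1 (chr17:50373729-50374108). The centre of that peak was 735 bp before the start of MRPL27, inside EME1.

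Divergent genes without a peak at the start included DAP3 with YY1AP1, MRPL32 with the proteasome gene PSMA2, MRPL49 with the ribosomal protein gene FAU, MRPS12 with SARS2 and MRPL57 with SKA3. SARS2 charges mitochondrial transfer RNA, so this pair serves the same process. In 4 more genes (5.71%, 1.58 to 14.0%) the opposite start lay on the downstream side only, against 3.83% of protein-coding genes. Of these, MRPL34, MRPL9 and MRPS34 had a promoter peak and MRPS9 had none. The share with a peak was not computed for all protein-coding genes of this kind. The peaks of MRPL9 and MRPS34 were classed at transcripts of their neighbours OAZ3 and EME2. In all, 5 of the 29 promoter peaks had a class naming a transcript of another gene, the last of them MRPL13 with MTBP. Such classes were not counted for the promoter peaks of other protein-coding genes.

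For 8 genes no start was listed: MRPL2, MRPL10, MRPL13, MRPL15, MRPL21, MRPL23, MRPL35 and MRPS28. Of these, MRPL10 and MRPL13 had the assigned promoter peaks given above. At MRPL2 a peak of score 454 (chr6:43059196-43060183) was assigned to KLC4, a kinesin light chain gene, and was centred 173 bp from the end of the MRPL2 span. That is above every score assigned to a mitochondrial ribosomal protein gene. With assigned and other peaks together, 30 of the 78 genes had a peak at a start, the 28 above with MRPL27 and MRPL46, and MRPL2 is not among them because its strand was not listed. The same combined count was not made over all protein-coding genes, so it has no share to stand beside.

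The letters of 7 motifs were searched on both strands of the windows, each 300 bases long. They were a RONIN/ZNF143 element (ACTACA, then any 2 bases, then TCCC), NRF1 (GCATGCGC), ETS (CCGGAAG), YY1 (AANATGGCG), the E-box (CACGTG), the CCAAT box (CCAAT) and the GC box (GGGCGG). Within the windows of the mitochondrial ribosomal protein genes matches of different motifs overlapped in 1 gene, MRPL53, for ETS and the GC box. The RONIN/ZNF143 element was in 7 of the 70 genes (10.0%, 4.12 to 19.5%), against 493 of 15812 protein-coding genes (3.12%). The sites are printed below because the series concerns RONIN. Each is read on the strand of the element, with the element in capitals and 9 bases on either side, from RefSeq on GRCh38.p14.
MRPL24 (chr1:156741184-156741213, minus strand): tagcggcggACTACAACTCCCagcatgctg
MRPL24 (chr1:156741123-156741152, minus strand): tacacttggACTACAACTCCCagaaagtcg
MRPL19 (chr2:75646767-75646796, minus strand): cacgtcaagACTACAGCTCCCagtaatcag
MRPS22 (chr3:139343933-139343962, plus strand): tttaactagACTACATTTCCCagagtgctg
MRPL50 (chr9:101398778-101398807, minus strand): gccccctcaACTACAACTCCCgtcatgctc
MRPL50 (chr9:101398713-101398742, minus strand): agctactggACTACATTTCCCagcgtgcaa
MRPL42 (chr12:93467440-93467469, plus strand): cccgcggagACTACATTTCCCagaatgccc
MRPL34 (chr19:17305793-17305822, plus strand): ttaggagaaACTACATTTCCCataatcctt
MRPS26 (chr20:3045978-3046007, plus strand): agcccgaggACTACAGGTCCCaaggttccc

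Of these 7 genes, 5 had a promoter peak: MRPL24, MRPL34, MRPS22, MRPL42 and MRPS26, with scores of 87, 137, 69, 24 and 57. In MRPL24 the element occurred 2 times, at -116 to -105 and at -55 to -44, and both copies lay inside the peak, 16 and 76 bp from its centre. The elements of MRPL42, MRPS26, MRPS22 and MRPL34 lay 62, 108, 140 and 160 bp from the centre, also inside the peak. MRPL50, with 2 copies, and MRPL19, with 1 across the start, had no peak there. All but that of MRPL19 were upstream of the start.

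The element was thus in 5 of 26 genes with a promoter peak and a listed start (19.2%, 6.55 to 39.4%), against 2 of 44 without one (4.55%, 0.555 to 15.5%), and these intervals overlap. Over all protein-coding genes it was in 195 of 2576 with a promoter peak (7.57%, 6.58 to 8.66%) and 298 of 13236 without one (2.25%, 2.01 to 2.52%). Of the separate copies, 6 of 9 lay inside a peak (66.7%, 29.9 to 92.5%), against 230 of 555 (41.4%, 37.3 to 45.7%) in other protein-coding genes. A match of letters is a description of the sequence and shows no binding, and most of the 26 genes with a peak held no match in these windows.

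ETS letters were the most frequent of the first 4 motifs, in 30 of the 70 genes (42.9%, 31.1 to 55.3%), against 16.5% of protein-coding genes. They were as frequent without a promoter peak (18 of 44, 40.9%) as with one (12 of 26, 46.2%). In 25 of the 30 genes they began between 60 bases before and 10 after the start, as in the MRPS23 window above at -14 to -8. YY1 letters were in 18 genes (25.7%, 16.0 to 37.6%), against 885 of 15812 protein-coding genes (5.60%), and in 16 of the 18 they lay on the gene's strand just after the start, beginning at positions 6 to 35. The positions of ETS and YY1 letters were not counted in other protein-coding genes. With a promoter peak 5 of 26 genes had YY1 letters (19.2%), without one 13 of 44 (29.5%). Over all protein-coding genes ETS letters were in 620 of 2576 with a promoter peak (24.1%) and 1987 of 13236 without one (14.4 to 15.6%). For YY1 these shares were 9.67% and 4.81%. Both motifs were thus frequent in the family in genes with and without a peak. NRF1 letters were in 1 of 26 genes with a promoter peak (MRPL52) and 5 of 44 without one, against 4.89% in both over all protein-coding genes. The E-box was likewise in 1 of 26 (MRPL45) and 8 of 44, against 13.4% and 10.4%. CCAAT letters were in 5 of 26 (19.2%, 6.55 to 39.4%) and 18 of 44 (40.9%, 26.3 to 56.8%), against 41.9% and 42.1% over all protein-coding genes. The GC box was in 17 of 26 (65.4%) and 26 of 44 (59.1%), against 2010 of 2576 (76.4 to 79.6%) and 61.6% over all protein-coding genes.

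**Figure D5:**
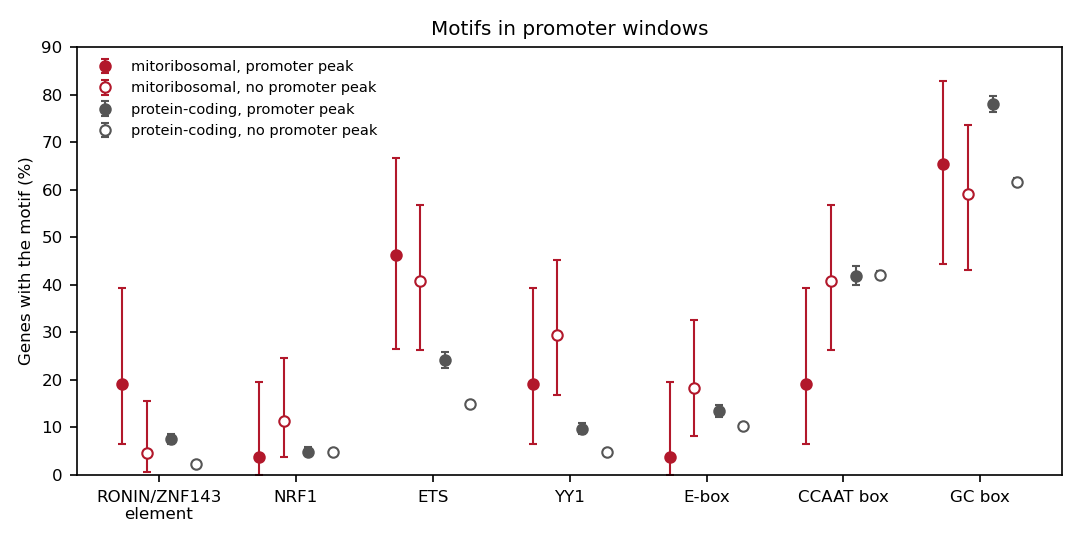
Share of genes whose windows hold each motif (points, percent, with exact 95% intervals), for mitochondrial ribosomal protein genes (red) and all protein-coding genes (grey) with a promoter peak (filled) and without one (open). The RONIN/ZNF143 element is at 19.2% and 4.55% in the mitochondrial ribosomal protein genes, and ETS at 46.2% and 40.9%.

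Base composition was compared in the same windows. Those of these genes that a peak overlapped had a median of 59.0% G and C (30 windows), against 61.3% in the 57 windows without overlap. Over all protein-coding genes it was 65.7% (2679 windows) and 61.7% (19453 windows). In this family the windows with a peak did not have the higher median, whereas over all genes they did, and the difference was not tested.

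Distal peaks, those that stayed outside the 1 kb window, numbered 19 and were assigned to 17 genes, of which 14 had no promoter peak. Among the peaks of these genes nothing lay near the edge of the window: the last inside was the weak MRPL34 peak, whose edge was 701 bp from the start, and the first outside was that of MRPL4, 3053 bp away. Counting promoter and distal peaks, the 42 genes with an assigned peak had 48. Distal peaks made up 19 of the 48 peaks of this family, and promoter peaks 60.4%, against 21.6% promoter peaks in other protein-coding genes.

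The distal peaks had higher scores at their top than the promoter peaks. MRPS30, whose product also goes by a name for programmed cell death, had 2 peaks 174279 and 180867 bp downstream of its start, with scores of 387 (chr5:44982856-44983597) and 100 (chr5:44989643-44989986), over the retroviral repeats LTR76 and HERVK9-int. MRPL20 had a peak of 335 and 1419 bp (chr1:1411799-1413217) 5215 bp before its start over LTR2B. MRPL55 had 322 (chr1:228117969-228118678) 9011 bp before its start over MER57-int. These 3 genes had no promoter peak, and the repeats were endogenous retroviral elements in all 4 peaks.

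MRPL33 had a peak of 137 in intron 7 of RBKS (chr2:27824348-27824785) over an L1MB5 element, and MRPL4 had one of 126 in its own intron 4 (chr19:10255268-10255775) over an L2b element. The MRPS17 peak of 116 (chr7:55939077-55940187) lay in exon 7 of the zinc finger gene ZNF713, 12245 bp before the start of MRPS17. The other 12 distal peaks scored from 14 (MRPS10) to 64 (MRPS22). Repeats were labelled at the centre of 13 of 19 distal peaks (68.4%), against 76.6% in other protein-coding genes. LTR elements held 7 of the 19 (36.8%), against 21.4% in other protein-coding genes, LINE elements 5 (26.3%), against 44.8%, and a DNA transposon 1. These counts are small, and 2 of the LTR peaks belonged to MRPS30. Whether these shares differ from those of other genes was not tested. Only 6 of the 19 peaks lay in an intron of the assigned gene itself, and 5 lay within 10 kb of its start. The deposited annotation assigns each peak to a start of its own set, however far that is, and a start listed by RefSeq can be nearer. The ANKLE1 peak, for example, had a deposited distance of 10175 bp but lay 497 bp from a listed start of MRPL34.

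The 36 genes without an assigned peak were MRPL2, MRPL3, MRPL14, MRPL17, MRPL21, MRPL22, MRPL23, MRPL27, MRPL28, MRPL32, MRPL35, MRPL36, MRPL37, MRPL41, MRPL43, MRPL44, MRPL46, MRPL47, MRPL49, MRPL50, MRPL51, MRPL57 and MRPL58 in the large subunit. In the small subunit they were DAP3, MRPS2, MRPS6, MRPS9, MRPS14, MRPS16, MRPS18A, MRPS18B, MRPS18C, MRPS21, MRPS25, MRPS33 and MRPS35. Of the large subunit genes, 23 of 49 had no assigned peak, and of the small subunit genes 13 of 29. A missing peak does not show that mTOR was absent, since the depth is unknown and the state of these loci in the cell line was not examined.

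Other genes of mitochondrial translation were examined as 4 lists, of 53 genes together. In all, 11 of the 53 had a promoter peak (20.8%, 10.8 to 34.1%), against the 15.5% of all protein-coding genes. Of 5 further ribosomal proteins named outside the MRP scheme, AURKAIP1 and GADD45GIP1 had one, with scores of 50 and 38. Of 17 translation factors 5 did, led by the release factor gene MTRF1 with 141, the translational activator gene TACO1 with 53 and the elongation factor gene TSFM with 48. Of 27 assembly and ribosomal RNA factors 3 did (11.1%, 2.35 to 29.2%), namely MTERF3 with 109, NSUN4 with 37 and MPV17L2 with 18. Of 4 genes of mitochondrial transcription, POLRMT, the RNA polymerase, had one with 50. The interval of each list includes 15.5%.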

How the data were processed

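The mTOR ChIP library was enriched from cross-linked MDA-MB-231 chromatin with an mTOR antibody and sequenced as paired reads of 150 bp, per the labels' protocols. Trimmomatic 0.36, BWA 0.7.12, Picard 2.0.1, MACS2 2.1.1.20160309, HOMER 4.11.1 and hg38 are named in the submitters' processing notes. Neither peak thresholds nor the handling of duplicate reads are stated in the sources used here. The deposited table gives each peak's position, a whole-number score, class, distance to the assigned start and gene. Scores were used only to rank peaks.

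Genes came from RefSeq on GRCh38.p14. A promoter peak overlapped 1 kb either side of the assigned start, from the deposited distance and peak width. Listed starts came from the RefSeq promoter table, with 22132 starts of 15812 protein-coding genes and 87 starts of 70 of the 78 genes. Recomputed distances matched the deposited ones within 1 bp for 77.7% of 3011 promoter peaks. Named genes are those with a promoter peak, a peak of another gene at the start, or a distal peak of score 100 or more, and up to 3 per other list. The genes and lists were chosen with earlier results of these data known, and ancestry classes and the divergent contrast after the values were seen. Alternatives were other windows, the deposited class, limits on score, and peaks, repeats or chromosomes left out. The window rule, motif search and intervals were tested on simulated data. The software was Python 3.11.15 with scipy 1.17.1 for intervals, numpy 2.4.6 and pandas 2.3.3 for tables, and matplotlib 3.10.9 for plots. No control antibody library was analysed here.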

Additional observations from a re-analysis of the deposited data

How the results depend on the processing

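Of 37 alternative values of 7 results, 30 stayed within the interval, spread or 1.5 times of the reported value. They covered windows of 100 bp and 5 kb, the deposited class, most of the peak in the window, any peak at the start, repeats left out and chromosome 19 left out. Neighbour starts within 500 bp or 2 kb were also used, for opposite-strand starts on either side only. That count was 31 of 70 genes within 1 kb, 27 within 500 bp and 32 within 2 kb. The number of divergent genes and the divergent contrast were not recomputed with these limits. The 7 that moved came from limits on the score, which leave fewer peaks. With the 10720 higher-scoring peaks, promoter peaks were in 15.4% of the 78 genes, 16.3% of large and 13.8% of small subunit genes, against 7.45% of all protein-coding genes, and 18 genes (23.1%) had any assigned peak, against 26.7%, where with all peaks the 42 genes (53.8%) stood above the 41.7% of all protein-coding genes. With the 2144 top-scoring peaks the 3 shares, of assigned promoter peaks only, were 0, 0 and 0, with 1.57% of all protein-coding genes. The number of genes and the unknown depth limit precision. The placement of MRPS30 and MRPS18A was chosen after seeing the data. No paired analysis was possible because each group has 1 sample.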

Other observations

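A pair of peaks fell on relatives outside the naming rule. The pseudogene MRPL45P2 had a peak of score 105 and 1018 bp (chr17:47491810-47492827) centred 302 bp from its start, against a score of 56 at MRPL45 itself. The antisense gene MRPL20-AS1 had a peak of score 24 (chr1:1402225-1402598) at a gene end, 2881 bp from its start. How reads that fit both MRPL45 and its pseudogene were placed is not given in the sources used here.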
